A study of Mus musculus with 19 samples.

Results

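The genes for 9 inflammatory cytokines of the interleukin-1 (IL-1), tumour necrosis factor (TNF) and IL-6 groups were followed through RNA sequencing of sorted hippocampal microglia. They were chosen by symbol: Il1a and Il1b (the IL-1 agonists), Il1rn (the IL-1 receptor antagonist), Il18, Tnf, Il6, Osm (oncostatin M), Il12b (the p40 chain shared by IL-12 and IL-23) and Il10. All 9 were found among the 23951 genes of each of the 2 deposited tables.

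IL-1 alpha and IL-1 beta act on the same receptor, and the IL-1 receptor antagonist binds that receptor without starting a signal, so the agonists and the antagonist are read together. IL-1 beta and IL-18 are made as precursors and cut by inflammasome caspases, while TNF is shed from the cell surface by a metalloprotease. TNF and IL-1 receptors both lead to the transcription factor NF-kB, whereas IL-6 and oncostatin M act through receptors that share the gp130 chain and signal through JAK kinases and STAT factors. In brain, microglia are a main source of IL-1, TNF and several of the other members, and IL-10 is known as a cytokine that dampens their expression.

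The study asked how gene expression in microglia of a neurodegeneration model depends on PU.1, the myeloid transcription factor encoded by Spi1. Microglia were sorted as CD11b+ CD45 cells from hippocampus, and 15 libraries in 5 groups of 3 were made from their RNA. CK-p25 mice overexpress p25, an activator of the kinase Cdk5, in forebrain neurons once induced, and CK mice are the control littermates without the p25 transgene. All mice carried Cx3cr1CreER+/-, a tamoxifen-inducible Cre recombinase driven by a gene of microglia and other myeloid cells, so the Cre allele and tamoxifen treatment are common to every group, and other Cx3cr1-expressing myeloid cells can recombine too. At 4.5 months the groups were CK, CK-p25, and CK-p25 with PU.1 fl/fl alleles (CK-p25 PU.1 cKO). These mice received tamoxifen at 50 mg/kg on 5 consecutive days at the start of p25 induction, at 3 months of age, and tissue was taken 6 weeks later. The 3-month mice are not labelled CK or CK-p25 and were taken 1 week after the same course. For these 6 libraries the titles and genotypes call the samples controls or PU.1 cKO in 1 way while the column names point the other way. They are therefore called the libraries labelled control and the libraries labelled PU.1 cKO, and no difference between them is read as an effect of PU.1 loss. The 4.5-month libraries include no CK mice with PU.1 cKO, so an effect of the knockout without p25 cannot be measured at that age.

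Values are FPKM, fragments scaled to transcript length and to the mapped fragments of a library, which allow levels of different genes to be compared within a table. The tables were normalized separately, and all tests stay within a table. Differences are on the log2(FPKM + 1) scale with the model's standard error (SE), and this scale understates the change of genes near or below 1 FPKM. A gene was called at a Benjamini-Hochberg adjusted p below 0.05 by limma over all genes whose mean reached 1 FPKM. That left 8 of the 9 members at 4.5 months (Il10 was too low) and 7 at 3 months (Il10 and Il12b were too low). The labels do not say that the libraries of a group come from separate animals, so a p-value here speaks of the spread among libraries, some of which may be technical.

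Several libraries stood apart, and the values matter for the cytokines. CK-p25 replicate 3 came from a sequencing file with another prefix than the other 8 libraries of its table. It was the highest of the 9 libraries for 7 of the 8 tested members, against 27.1% of all tested genes. Its summed level of 11 dissociation stress genes was 2086 FPKM, and the other 8 libraries held 726 to 1098. These are immediate early genes and the heat shock genes Hspa1a and Hspa1b, which rise when tissue is dissociated. At 3 months the same sum was 2428, 2073 and 1102 FPKM in labelled control and 3124, 2172 and 1465 in labelled PU.1 cKO. Labelled control replicate 1 held 16127 FPKM over 10 neutrophil markers, with S100a8 at 4831 and Ngp at 4636 FPKM, while the other 14 libraries held 140 to 1035. In that library all 10 markers were above 0. Mpo was at 0 in the other 14, and Elane was at 0 in all but 2 of these, at 0.0677 and 0.280 FPKM. Labelled control replicate 2 held the most of 7 border macrophage markers, 1427 FPKM against 6.69 to 578 elsewhere. All 12 microglia markers were at 1 FPKM or more in every library, and their sum was 30044 to 32808 FPKM in CK, 19048 to 21470 in CK-p25, 17360 to 19458 in CK-p25 PU.1 cKO, 10802 to 17837 in labelled control and 32402 to 37933 in labelled PU.1 cKO. Spi1, the targeted gene, was at 256, 230 and 251 FPKM in CK, at 251, 208 and 298 with p25, and at 165, 152 and 224 with p25 and the knockout. The knockout libraries thus kept most of the Spi1 signal, and the difference from CK-p25 (-0.49 ± 0.17 SE, adjusted p = 0.745) did not pass. At 3 months Spi1 measured 261, 105 and 248 FPKM in labelled control and 409, 338 and 337 in labelled PU.1 cKO. It was higher in the libraries labelled as the knockout, against the label, without passing the test (0.92 ± 0.35 SE, adjusted p = 0.0853). In bulk RNA, fewer cells of a type and less RNA per cell cannot be told apart.

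**Figure D1:**
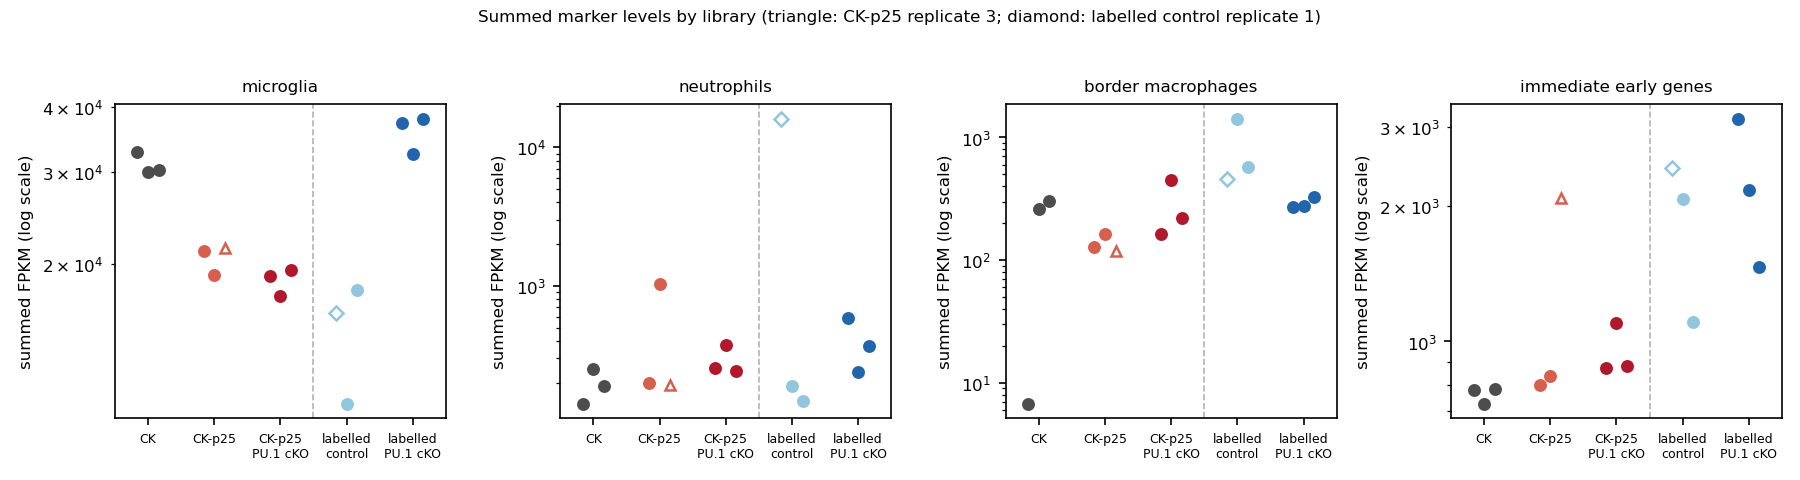
Summed FPKM (log axis) of the microglia, neutrophil, border macrophage and dissociation stress lists in each of the 15 libraries, by group. The last panel is titled immediate early genes and also holds the heat shock genes Hspa1a and Hspa1b. Among 4.5-month libraries CK-p25 replicate 3 (triangle) is highest for dissociation stress genes at 2086, and labelled control replicate 1 (diamond) is high for neutrophil markers at 16127.

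The promoter sequences of the members that passed a test in at least 1 comparison are shown here, because the factors that read them are those the study is about (PU.1) or that IL-1 and TNF signal to (NF-kB). They are the 250 bases before the annotated start, from RefSeq on GRCm38.p6, 5′ to 3′ on the gene's own strand. RefSeq windows matched 7 of the 9 members, Il1rn with 3 starts, and Osm and Il10 had none. Capitals mark matches on either strand to TATAAA (the TATA box), GGG and CC with any 5 bases between them (NF-kB type), TGANTCA (AP-1 type) and GAGGAA (PU.1 type core). Il1b lies at chr2:129371140-129371389 on the minus strand, starts 1, 2 and 3 of Il1rn at chr2:24336610-24336859, chr2:24345041-24345290 and chr2:24345121-24345370 on the plus strand, Il6 at chr5:30012864-30013113 on the plus strand, Tnf at chr17:35202008-35202257 on the minus strand and Il12b at chr11:44399813-44400062 on the plus strand.
Il1b: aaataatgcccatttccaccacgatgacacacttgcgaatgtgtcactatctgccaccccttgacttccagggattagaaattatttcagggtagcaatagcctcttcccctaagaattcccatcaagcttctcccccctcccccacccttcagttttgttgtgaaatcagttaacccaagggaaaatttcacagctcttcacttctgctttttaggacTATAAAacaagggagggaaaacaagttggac
Il1rn start 1: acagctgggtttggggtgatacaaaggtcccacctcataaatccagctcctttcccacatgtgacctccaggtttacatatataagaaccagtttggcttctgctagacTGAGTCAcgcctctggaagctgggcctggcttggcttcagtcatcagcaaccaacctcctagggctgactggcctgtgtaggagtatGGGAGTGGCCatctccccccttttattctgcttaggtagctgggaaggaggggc
Il1rn start 2: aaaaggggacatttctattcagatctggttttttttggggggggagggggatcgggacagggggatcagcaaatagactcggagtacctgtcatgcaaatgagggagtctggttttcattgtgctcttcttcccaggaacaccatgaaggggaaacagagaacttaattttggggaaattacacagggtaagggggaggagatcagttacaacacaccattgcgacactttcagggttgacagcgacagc
Il1rn start 3: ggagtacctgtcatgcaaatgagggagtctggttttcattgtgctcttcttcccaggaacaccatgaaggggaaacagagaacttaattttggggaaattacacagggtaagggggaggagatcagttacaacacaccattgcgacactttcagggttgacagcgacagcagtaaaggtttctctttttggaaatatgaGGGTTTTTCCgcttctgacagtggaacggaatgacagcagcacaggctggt
Il6: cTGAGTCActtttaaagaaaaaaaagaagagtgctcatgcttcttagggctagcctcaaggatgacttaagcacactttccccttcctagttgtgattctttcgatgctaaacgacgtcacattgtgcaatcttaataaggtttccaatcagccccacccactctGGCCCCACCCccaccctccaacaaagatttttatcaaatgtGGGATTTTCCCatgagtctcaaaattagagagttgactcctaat
Tnf: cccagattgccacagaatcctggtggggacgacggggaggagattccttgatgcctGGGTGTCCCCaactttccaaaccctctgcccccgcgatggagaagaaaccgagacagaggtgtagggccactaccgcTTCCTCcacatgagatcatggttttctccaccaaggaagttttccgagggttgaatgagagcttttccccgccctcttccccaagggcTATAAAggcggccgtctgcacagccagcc
Il12b: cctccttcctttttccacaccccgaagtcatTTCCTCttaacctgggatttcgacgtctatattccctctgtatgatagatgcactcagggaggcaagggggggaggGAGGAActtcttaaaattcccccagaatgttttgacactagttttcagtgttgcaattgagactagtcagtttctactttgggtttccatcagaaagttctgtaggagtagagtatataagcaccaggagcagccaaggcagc

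Counting back from the start, the base next to it being -1, Il1b has TATAAA at -31 to -26 and Tnf has it at -29 to -24. Il6 holds 3 matches of the NF-kB type, GGCCCCACCC at -85 to -76 and a pair that overlap by all but 1 base, GGGATTTTCC at -44 and GGATTTTCCC at -43. It also has TGAGTCA at -249 to -243. Il1rn start 1 holds GGGAGTGGCC at -54 to -45 and TGAGTCA at -141 to -135, and its start 3 holds GGGTTTTTCC at -51 to -42. The window of Il1rn start 2 overlaps that of start 3 and holds none of these 4 types. Tnf has GGGTGTCCCC at -194 to -185 and the reverse of the PU.1 type core, TTCCTC, at -117 to -112. Il12b has this core at -219 to -214 and, on the other strand, at -143 to -138. Among 32851 windows of the same 250 bases, 12.4% hold TATAAA, 45.8% the NF-kB type, 6.75% the AP-1 type and 23.3% the PU.1 type core, so most of these letters are common. A C/EBP type, TTNNNNAA, is left in lower case because 57.7% of windows hold it. It occurs in every window shown except Il1rn start 1, and some of its matches share bases with others. These are letters in a window, not shown binding sites, and PU.1 binding data were not analysed here.

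In CK-p25 microglia, 4 of the 8 tested cytokines were higher than in CK and 1 was lower. Il1b, Il1rn, Osm and Il12b rose, Il6 fell, and Il1a, Il18 and Tnf did not pass the test. Il12b, listed at 0 in CK, reached the filter only through the p25 libraries, so its call and its non-overlap are no support. The same holds for Il1rn, which was below 1 FPKM in all 3 CK libraries. Across all 10894 tested genes, 17.6% were called higher and 13.7% lower, 31.3% in either direction, so a call is common in this comparison. The median difference was 0.85 over the 8 members and -0.0003 over all genes. It lies between the values of Tnf and Osm, and without CK-p25 replicate 3 it was 0.54. Il12b, at 1.76, is on the upper side of the median, and its size depends on the pseudocount because it is listed at 0 in CK. The 5 called members were also those whose 3 libraries did not overlap between groups, against 46.5% of all tested genes. The calls of Il1b, Il1rn, Osm and Il6 remained when any 1 of the 9 libraries was left out, in fits that kept the genes selected over all 9. The call of Il12b remained in those fits too, but without CK-p25 replicate 3 its mean is 0.755 FPKM, below the filter of 1.

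With p25 and the PU.1 cKO together, the same direction held against the shared CK libraries for Il1rn, Il1b and Il6. Of the 8 tested members 2 were higher (Il1rn and Il1b) and 1 was lower (Il6), beside 17.8% and 13.3% of all genes and 31.1% in either direction. The members' median was 0.53, between Osm and Tnf, and that of all genes was -0.001. Osm, Tnf and Il12b lay above CK and Il1a below CK without overlap, making 7 of 8 members separate from CK, but their tests did not pass. Non-overlap was found for 58.5% of all genes here. The non-overlap of Il12b and of Il1rn is no support, because only their p25 libraries brought them past the filter. The same holds for the call of Il1rn. Without CK-p25 replicate 3, whose spread enters the shared error, 5 members were called higher (Il12b, Tnf and Osm added) and 2 lower (Il1a added), beside 46.6% of all genes called. Il12b, then at a mean of 0.755 FPKM, is in that count only because the genes were selected with that library.

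Between CK-p25 PU.1 cKO and CK-p25, no member passed and 0 of 10894 genes did (percent called 0). At an unadjusted p below 0.05, limma gave 671 genes, 6.16% of those tested, and 4 of the 8 members (Il1a, Il1b, Il6 and Osm). All 8 members had a mean log2 difference below 0, with a median of -0.62 (-0.29 without CK-p25 replicate 3), where the median of all genes was 0. Il1a, Il6 and Osm were lower in all 3 knockout libraries than in any CK-p25 library, which 4.56% of tested genes were. Without CK-p25 replicate 3 the signs for Il18 and Tnf turned to 0.07 and 0.23, so the common direction holds for the other 6 members only.

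**Figure D2:**
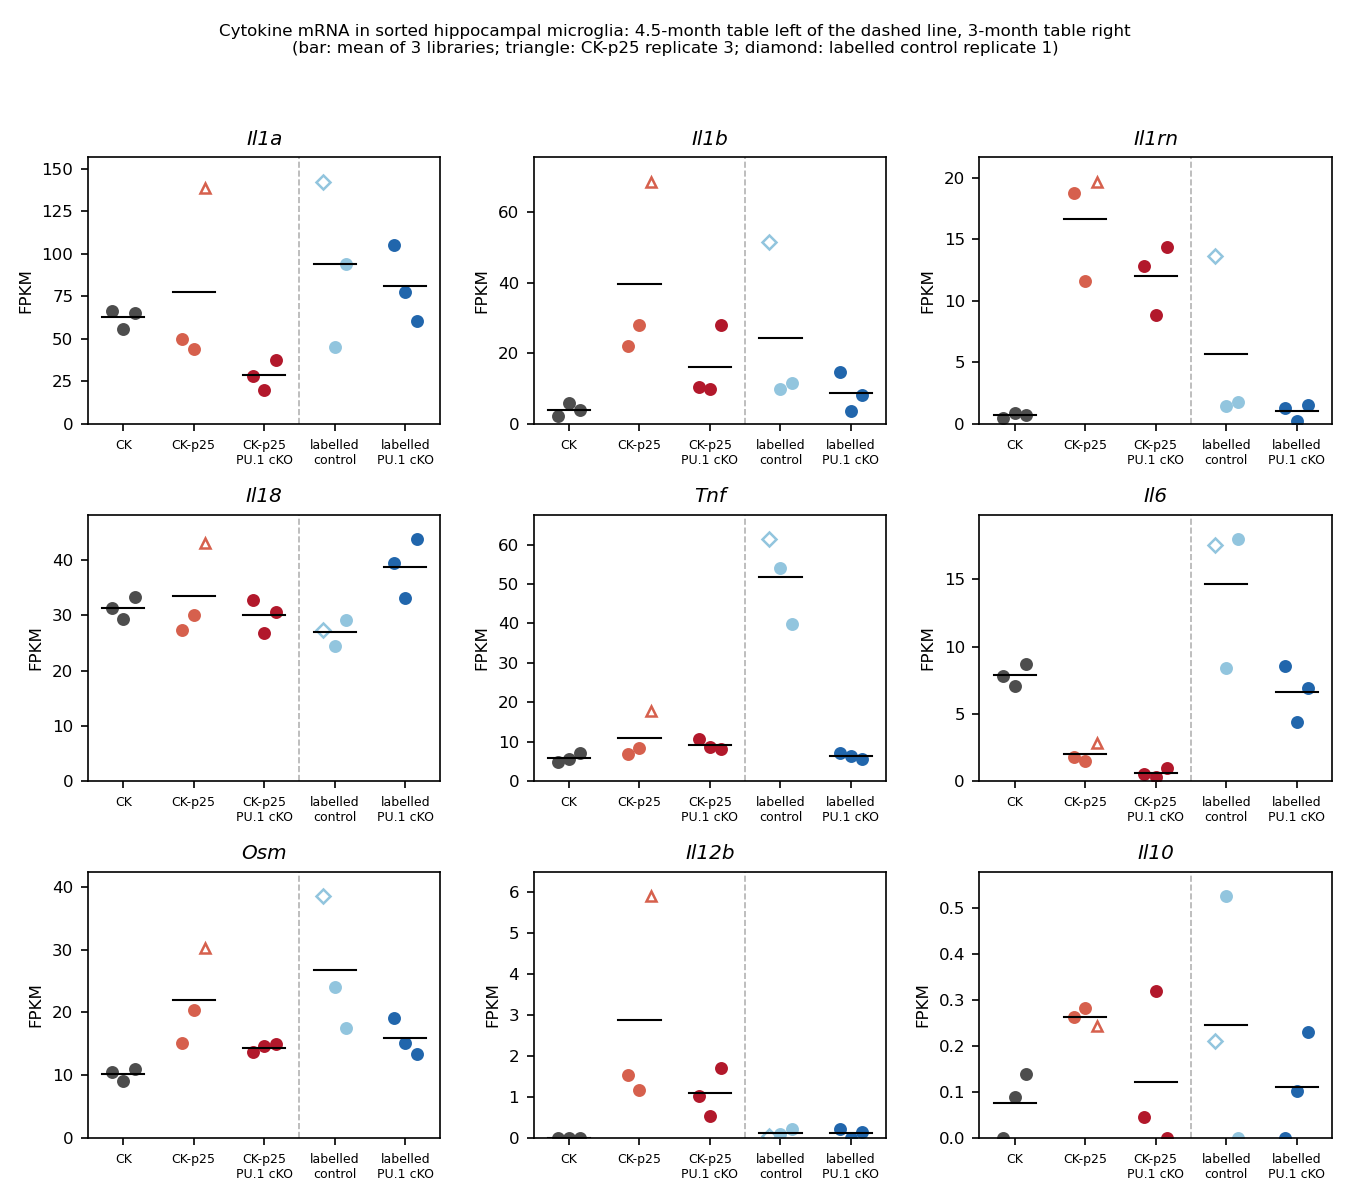
FPKM of each of the 9 cytokine genes in every library (points) with the mean of 3 libraries (bar), by group. Left of the dashed line, Il1b, Il1rn, Osm and Il12b are lowest in CK and Il6 is highest there, and in 7 of 9 panels CK-p25 replicate 3 (triangle) is the highest 4.5-month library; right of it, Tnf separates the 3-month groups.

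Il1b, the inducible IL-1 agonist, had 2.18, 6.06 and 3.98 FPKM in the CK libraries, 22.2, 28.1 and 68.7 in those of CK-p25, and 10.3, 9.96 and 28.2 in those of CK-p25 PU.1 cKO. Every p25 library, with or without the knockout, was above every CK library, and the knockout libraries overlapped those of CK-p25. The CK-p25 mean of 39.7 ± 25.3 (SD, n = 3) was 9.73 times the CK mean of 4.07 ± 1.94, a difference of 2.91 ± 0.53 SE (limma adjusted p = 0.00409). Without CK-p25 replicate 3 the ratio of means was 6.17. CK-p25 PU.1 cKO averaged 16.2 ± 10.4, or 3.97 times CK (1.67 ± 0.53 SE, limma adjusted p = 0.0419). Without knockout replicate 3 this ratio was 2.49. That second call was close to the threshold. It was lost when any of 7 of the 9 libraries was left out (adjusted p from 0.0568 to 0.144), all but CK-p25 replicates 1 and 3. Between the p25 groups Il1b differed by -1.23 ± 0.53 SE (limma adjusted p = 0.745), with a 95% interval of -2.44 to -0.03.

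Il1a, the agonist that many cells hold ready as a precursor, was the most abundant member in CK, at 66.6, 56.0 and 65.2 FPKM. CK-p25 libraries held 50.2, 44.0 and 138 FPKM, and those of CK-p25 PU.1 cKO 28.0, 20.0 and 37.9. Of the CK-p25 libraries 2 were below all CK libraries and 1 was above them. The difference of 0.11 ± 0.41 SE (limma adjusted p = 0.865) became -0.40 without that library, CK-p25 replicate 3. All 3 knockout libraries were below every library of the other groups. Their mean of 28.6 ± 8.94 (SD, n = 3) was 0.457 times CK (-1.14 ± 0.41 SE, limma adjusted p = 0.0664) and 0.369 times CK-p25 (-1.25 ± 0.41 SE, limma adjusted p = 0.745). Without CK-p25 replicate 3 the difference of the knockout libraries from CK passed (limma adjusted p = 0.00473).

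The balance of the agonists moved with these values. Il1a FPKM was 30.6, 9.24 and 16.4 times that of Il1b in the CK libraries, 2.26, 1.57 and 2.02 times with p25, and 2.71, 2.01 and 1.34 times with p25 and the knockout. The range in CK did not overlap that in either p25 group. These ratios are given as a description and were not tested.

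Il1rn had the largest difference from CK of the members that had signal there. Its 3 CK libraries held 0.486, 0.875 and 0.748 FPKM, those of CK-p25 18.7, 11.6 and 19.7, and those of CK-p25 PU.1 cKO 12.8, 8.81 and 14.4. The p25 groups overlapped each other and were far above CK. The CK-p25 mean of 16.7 ± 4.41 (SD, n = 3) was 23.7 times CK (3.35 ± 0.23 SE, limma adjusted p = 4.10e-05), and the knockout mean of 12 ± 2.89 was 17.1 times CK (2.91 ± 0.23 SE, limma adjusted p = 7.50e-05). Between the p25 groups the difference was -0.43 ± 0.23 SE, with a 95% interval of -0.97 to 0.10. Both calls against CK remained when any 1 of the 9 libraries was left out, in fits that kept the genes selected over all 9. Il1rn was below 1 FPKM in every CK library and reached the filter only through the p25 libraries. Its calls against CK therefore carry no weight of their own.

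The ratio of the antagonist to the agonist, Il1rn to Il1b, was 0.223, 0.144 and 0.188 in the CK libraries, 0.845, 0.414 and 0.287 in those with p25, and 1.24, 0.885 and 0.511 in those with p25 and the knockout. Every CK value was below every value of the p25 groups, which overlapped each other. The test of this ratio used log2((Il1rn + 1)/(Il1b + 1)), on which CK averaged -1.51 ± 0.41 (SD, n = 3), CK-p25 -1.06 ± 0.77 and CK-p25 PU.1 cKO -0.27 ± 0.61. In a two-sided exact permutation test over 3 against 3 libraries the smallest possible p is 0.10. The exact test gave p = 0.10 for CK-p25 PU.1 cKO against CK (adjusted 0.30 over 3 pairs), p = 0.50 for CK-p25 against CK (adjusted 0.50) and p = 0.20 between the p25 groups (adjusted 0.30). The pseudocount of 1 exceeds the CK level of Il1rn, so this scale and the plain ratio differ most in CK.

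**Figure D3:**
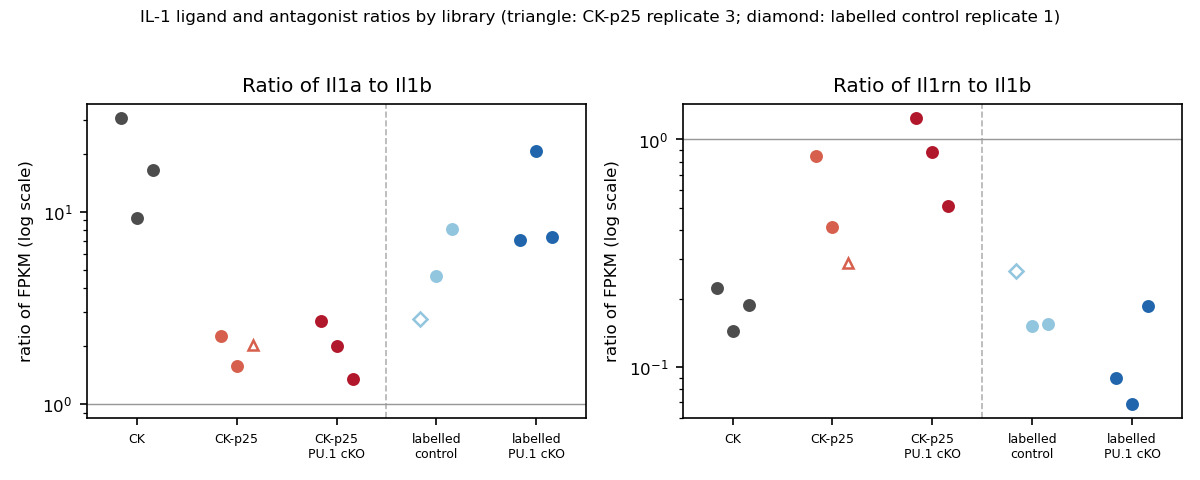
Ratio of FPKM of Il1a to Il1b (left) and of Il1rn to Il1b (right) in each library, log axes, by group; the grey line is at 1. CK libraries have the highest Il1a to Il1b ratios of the 4.5-month table (9.24 to 30.6) and the lowest Il1rn to Il1b ratios (0.144 to 0.223).

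Il18, an IL-1 family cytokine kept as a precursor, was even across the 4.5-month groups. CK held 31.3, 29.4 and 33.4 FPKM, CK-p25 27.3, 30.0 and 43.1, and CK-p25 PU.1 cKO 32.8, 26.9 and 30.6. All 3 groups overlapped. The difference of CK-p25 from CK was 0.07 ± 0.16 SE (95% interval -0.31 to 0.44) and that of the knockout libraries from CK was -0.06 ± 0.16 SE (-0.43 to 0.32), so on this scale the limits lie within 0.44 of 0.

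Tnf, the ligand of both TNF receptors, had 4.74, 5.59 and 7.17 FPKM in CK libraries, while CK-p25 libraries held 6.89, 8.43 and 17.7 and CK-p25 PU.1 cKO libraries 10.8, 8.69 and 8.13. CK-p25 overlapped CK in 1 library and the knockout libraries did not. Neither difference passed: CK-p25 was at 0.72 ± 0.30 SE from CK (limma adjusted p = 0.104) and CK-p25 PU.1 cKO at 0.59 ± 0.30 SE (limma adjusted p = 0.181). With CK-p25 replicate 3 left out the second passed (limma adjusted p = 0.0222). With CK-p25 replicate 1 left out the first did, at 0.97 (limma adjusted p = 0.0497), and with CK-p25 replicate 3 left out it was at 0.35 and did not pass (limma adjusted p = 0.158).

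Il6, which signals through its own receptor chain and gp130, was the member that fell. Its CK libraries held 7.83, 7.04 and 8.73 FPKM, those of CK-p25 1.76, 1.47 and 2.81, and those of CK-p25 PU.1 cKO 0.526, 0.284 and 0.969. The 3 groups did not overlap anywhere and were ordered CK, CK-p25, CK-p25 PU.1 cKO. The CK-p25 mean of 2.01 ± 0.704 (SD, n = 3) was 0.256 times the CK mean of 7.87 ± 0.849 (-1.58 ± 0.21 SE, limma adjusted p = 0.00105), and the knockout mean of 0.593 ± 0.347 was 0.0754 times CK (-2.49 ± 0.21 SE, limma adjusted p = 0.000108). Il6 also had the smallest unadjusted p of the members between the p25 groups (-0.92 ± 0.21 SE, 95% interval -1.41 to -0.43, unadjusted p = 0.00250 from limma), although with all genes counted the adjusted p was 0.745. The steps of the FPKM values give these levels as 150, 125 and 150 fragments for CK, 32, 25 and about 37 for CK-p25 and 9, 5 and 18 for the knockout libraries. These are the smallest whole numbers that match within 0.05, so the true numbers may be multiples of them.

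Osm, a cytokine of the same gp130 family made by myeloid cells, went the other way from Il6. Its CK values were 10.5, 9.05 and 11 FPKM, its CK-p25 values 15.2, 20.4 and 30.2, and its values with the knockout 13.6, 14.6 and 15. CK lay below both p25 groups, and the knockout libraries lay between the other groups without overlap. The CK-p25 mean of 21.9 ± 7.62 (SD, n = 3) was 2.15 times CK (0.99 ± 0.21 SE, limma adjusted p = 0.00868). The knockout mean of 14.4 ± 0.70 was 1.41 times CK, which did not pass (0.46 ± 0.21 SE, limma adjusted p = 0.131) unless CK-p25 replicate 3 was left out (limma adjusted p = 0.0172).

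Il12b was listed at 0 in all 3 CK libraries. CK-p25 libraries held 1.55, 1.19 and 5.91 FPKM and CK-p25 PU.1 cKO libraries 1.03, 0.546 and 1.71, so every p25 library had signal. It was tested only because the p25 libraries brought its mean past the filter, so its calls against CK carry no weight of their own. The rise in CK-p25 passed (limma adjusted p = 0.0153), and no fold is given against a group listed at 0. In CK-p25 PU.1 cKO it did not pass (limma adjusted p = 0.102). The FPKM steps give at least 56, 40 and about 154 fragments in CK-p25 and 35, 19 and 63 in the knockout libraries. A secreted IL-12 or IL-23 needs a second chain, and Il12a and Il23a, which encode them, were below the 1 FPKM filter.

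Il10, the anti-inflammatory member, was at most 0.319 FPKM in all 9 libraries of the 4.5-month table and was not tested. Its values were 0, 0.0902 and 0.140 FPKM for CK, 0.264, 0.283 and 0.243 for CK-p25 and 0.0469, 0.319 and 0 for the knockout libraries. The FPKM steps correspond to 0 to 7 fragments a library, too few to set the groups apart.

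**Figure D4:**
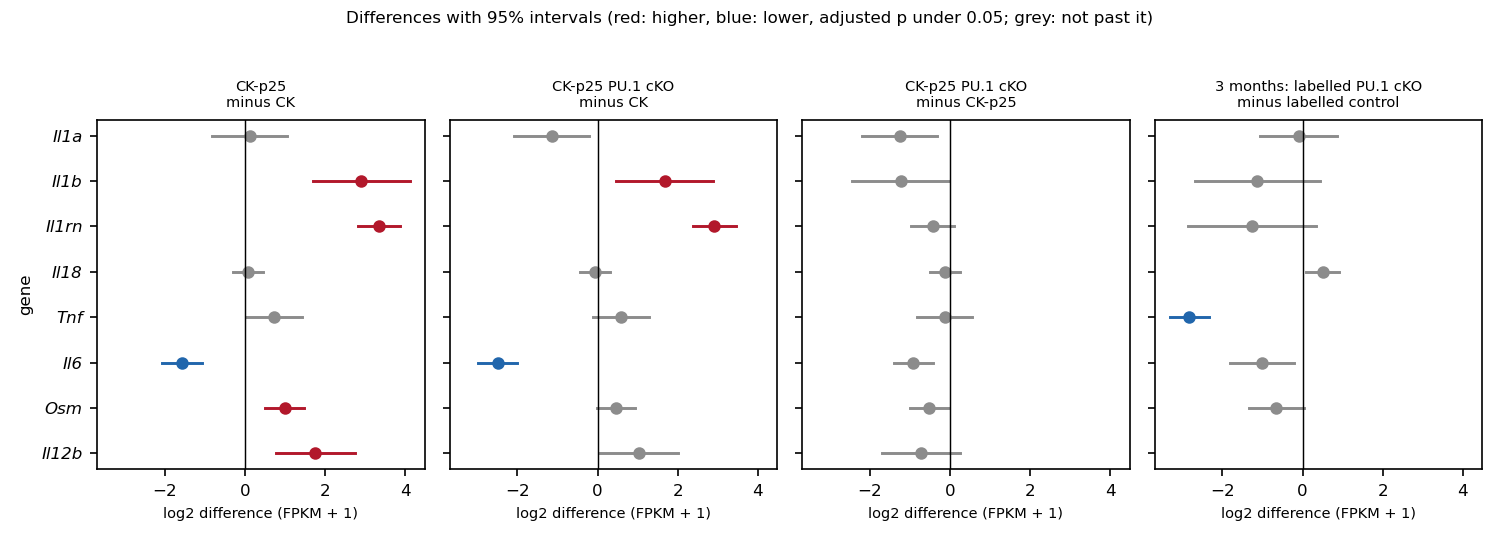
Log2 differences (points) with 95% intervals (lines) of the tested cytokines in the 4 comparisons, red for higher and blue for lower past the threshold, grey for not past it. In the first panel Il1b, Il1rn, Osm and Il12b are red and Il6 is blue, in the third all intervals are grey, and in the fourth only Tnf, at -2.83, passes; Il12b is listed at 0 in CK, so its size against CK depends on the pseudocount.

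Ordered by level, the CK libraries had Il1a first at 62.6 ± 5.74 FPKM, then Il18 at 31.4 ± 1.98 and Osm at 10.2 ± 1.03, and these neighbours did not overlap. Il6 (7.87 ± 0.849) and Tnf (5.83 ± 1.23) overlapped, as did Tnf and Il1b (4.07 ± 1.94). In CK-p25 the leading means were Il1a at 77.6 ± 52.8, Il1b at 39.7 ± 25.3 and Il18 at 33.5 ± 8.45, and Il1b overlapped both others, which did not overlap each other. By these means Il1b went from the sixth place of the 9 to the second, and Il6 from the fourth to the eighth. The second and eighth places rest on CK-p25 replicate 3. In CK-p25 replicates 1 and 2, Il1b (22.2 and 28.1 FPKM) was below Il18 (27.3 and 30.0). Il6 (1.76 and 1.47 FPKM) was above Il12b (1.55 and 1.19) in the same libraries. In CK-p25 PU.1 cKO the first 2 were Il18 at 30.1 ± 3.01 and Il1a at 28.6 ± 8.94, which overlapped.

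Beside these results, the microglia marker sum was lower in every p25 library than in every CK library, and the neutrophil sum was 140 to 251 FPKM in CK, 194 to 1035 in CK-p25 and 244 to 374 in CK-p25 PU.1 cKO. CK-p25 replicate 2, which held 1035 FPKM of neutrophil markers with S100a8 at 459, was the highest library for 0 of the 8 tested members. It was the highest for 8.09% of all tested genes, so that count says little. Monocyte markers (7 found) summed to 3.97 to 14.5 FPKM in CK, 16.0 to 34.4 in CK-p25 and 35.1 to 52.4 in CK-p25 PU.1 cKO. Astrocyte markers (5 found) summed to 4.74 to 12, 34.5 to 234 and 27.1 to 124 FPKM in the same order. Border macrophage markers summed to 6.69 to 305, 118 to 164 and 162 to 454 FPKM. The part of these cells in the cytokine values was not tested. Without CK-p25 replicate 3, the library with the high immediate early genes, 4 members were still called higher and 1 lower in CK-p25 against CK, beside 41.8% of all genes called. Il12b, below the filter without that library, is 1 of the 4.

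Receptors and signalling genes of the same pathways were followed in 11 lists, and in none of them did a gene pass between the p25 groups. The CK libraries are shared by both comparisons described here. Over the lists, 21 of 76 tested genes rose and 11 fell in CK-p25, and 17 rose and 11 fell in CK-p25 PU.1 cKO, 31.3% and 31.1% of all genes being called. The counts of genes that rose include Il1r1, Il12rb2 and, in CK-p25, Sigirr, which passed the filter only through the p25 libraries. Without CK-p25 replicate 3 these were 24 and 13 beside 41.8% of all genes, and 25 and 15 beside 46.6%. In the NF-kB list 7 then rose and 4 fell in CK-p25 PU.1 cKO. Among receptors and inhibitors of IL-1 and IL-18, 6 of 9 genes were tested, and 3 rose and none fell in each comparison with CK, with a list median of 0.56 in CK-p25 and 0.59 in CK-p25 PU.1 cKO. Il1r1, the signalling receptor of both IL-1 agonists, went from 0.339 ± 0.0760 FPKM (SD, n = 3) in CK to 2.54 ± 0.825 in CK-p25 (1.37 ± 0.19 SE, limma adjusted p = 0.00126) and 3.08 ± 0.156 in the knockout libraries (1.61 ± 0.19 SE). With a pseudocount of 0.1 these differences were 2.54 and 2.87. Il1r1 was below 1 FPKM in CK and reached the filter only through the p25 libraries, so its calls carry no weight of their own. Il18bp, a secreted protein that binds IL-18, went from 1.72 ± 0.454 to 19.1 ± 3.50 FPKM (2.88 ± 0.19 SE, limma adjusted p = 3.59e-05) and to 15.4 ± 3.25 (2.59 ± 0.19 SE), while Il18 itself did not pass. Sigirr, an inhibitory receptor of the family, passed in CK-p25 (0.86 ± 0.22 SE, limma adjusted p = 0.0190, lost with quantile normalization at 0.115), and was at 1.72 with a pseudocount of 0.1. Its CK mean of 0.398 FPKM was below the filter too, so that call carries no weight of its own either. Il1rap, the co-receptor for IL-1, passed in CK-p25 PU.1 cKO (0.54 ± 0.11 SE, limma adjusted p = 0.00607).

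Of the other IL-1 family ligands, 2 of 6 were tested and neither passed. Il33 was at 1.01 ± 0.368 FPKM (SD, n = 3) in CK, 3.33 ± 2.99 in CK-p25 and 3.00 ± 1.18 in CK-p25 PU.1 cKO, and Il1f9 was at 1.09 ± 0.387, 1.18 ± 0.660 and 0.895 ± 0.0623. The chain of adaptors from IL-1 and Toll-like receptors had all 10 genes tested, and 2 rose and 2 fell in CK-p25, 1 rose and 1 fell in CK-p25 PU.1 cKO, with medians of -0.12 and -0.10. Irak3, a kinase-like inhibitor of that chain, rose in CK-p25 (0.78 ± 0.16 SE, limma adjusted p = 0.00737) and in the knockout libraries (0.70 ± 0.16 SE). Tab2, an adaptor of the kinase TAK1, fell from 9.95 ± 1.38 FPKM in CK to 4.42 ± 0.325 in CK-p25 (-1.01 ± 0.12 SE, limma adjusted p = 0.000618) and 4.34 ± 0.557 in the knockout libraries (-1.03 ± 0.12 SE). Irak2, a kinase of the chain, passed in CK-p25 (0.40 ± 0.10 SE), a call lost with quantile normalization (0.23, limma adjusted p = 0.0570) and without CK replicate 1 or 3 or CK-p25 replicate 1. Traf6, the ubiquitin ligase downstream of it, also passed there (-0.52 ± 0.15 SE), a call lost with no filter (limma adjusted p = 0.0558), with only the compared libraries (0.0863), and without CK replicate 1 or 2, CK-p25 replicate 2 or knockout replicate 1 or 2.

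Of the genes for cytokine maturation and release, 10 of 11 were tested. In CK-p25 3 rose and 0 fell, in CK-p25 PU.1 cKO 3 rose and 1 fell, with medians of 0.35 in CK-p25 and 0.39 in CK-p25 PU.1 cKO. Casp4 (the mouse caspase-11, which senses intracellular lipopolysaccharide) rose from 4.68 ± 0.846 to 14.8 ± 3.05 FPKM (1.47 ± 0.17 SE, limma adjusted p = 0.000537) and to 15 ± 1.81 in the knockout libraries (1.5 ± 0.17 SE). Rhbdf2, a partner of the TNF-shedding protease ADAM17, rose by 0.84 ± 0.10 SE and by 1.05 ± 0.10 SE. Capn1, a calcium-activated protease, rose by 1.35 ± 0.18 SE and by 1.72 ± 0.18 SE. Nlrp3, an inflammasome sensor, fell in CK-p25 PU.1 cKO (-0.64 ± 0.15 SE, limma adjusted p = 0.0150), a call lost without CK replicates 2 or 3 or knockout replicate 2, and was at 8.45 ± 1.31 FPKM in CK and 7.09 ± 0.991 in CK-p25. Casp1, which cuts the IL-1 beta and IL-18 precursors, did not pass in either comparison with CK, but was called higher in both without CK-p25 replicate 3.

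In the TNF receptor list 11 of 12 genes were tested, and 1 rose in each comparison while 2 fell in CK-p25 and 3 in CK-p25 PU.1 cKO. Its medians were 0.05 and -0.14. Tnfrsf1b, the second TNF receptor and abundant on microglia, fell from 177 ± 15 FPKM in CK to 109 ± 4.94 in CK-p25 (-0.70 ± 0.09 SE, limma adjusted p = 0.000925) and 115 ± 8.61 in the knockout libraries (-0.62 ± 0.09 SE). Casp8, a protease of the death-inducing complex, fell in CK-p25 (-0.66 ± 0.18 SE, limma adjusted p = 0.0261, lost at 0.0736 with only the compared libraries and without CK replicate 1, 2 or 3 or CK-p25 replicate 1 or 2) and in CK-p25 PU.1 cKO (-0.85 ± 0.18 SE). Tnfaip3, which encodes the NF-kB inhibitor A20, rose by 0.53 ± 0.13 SE and by 0.45 ± 0.13 SE, with adjusted p-values of 0.0147 and 0.0267 from limma that crossed the threshold on leaving out CK replicate 2 or 3, and the latter also without knockout replicate 1 or 2 or with a replicate block (0.0534). Tnfrsf1a, the TNF receptor with a death domain, fell in the knockout libraries (-0.28 ± 0.09 SE, limma adjusted p = 0.0426), a call lost with no trend (0.0566), with a replicate block (0.0733) and without any 1 of CK replicates 1, 2 and 3 or knockout replicates 1 and 2. With quantile normalization it was -0.50.

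Of IL-6 family receptors and JAK-STAT genes, 11 of 13 were tested, and 4 rose and 2 fell in each comparison, with medians of 0.20 and 0.25. Il6ra, the receptor chain for IL-6, fell as Il6 did, from 77.6 ± 5.21 FPKM in CK to 40.9 ± 5.39 in CK-p25 (-0.91 ± 0.17 SE, limma adjusted p = 0.00441) and 33.0 ± 7.48 in CK-p25 PU.1 cKO (-1.23 ± 0.17 SE). Lifr, the receptor chain for leukaemia inhibitory factor, fell by 0.66 ± 0.11 SE and by 0.77 ± 0.11 SE. Il11ra1, the receptor chain for IL-11, rose by 0.82 ± 0.14 SE and by 0.57 ± 0.14 SE, the latter lost without CK replicate 1 or 3 or knockout replicate 3. Of 6 other IL-6 family ligands 2 were tested. Clcf1, a gp130 cytokine, fell in CK-p25 PU.1 cKO from 13.9 ± 0.894 to 4.51 ± 0.927 FPKM (-1.45 ± 0.31 SE, limma adjusted p = 0.00838) and was at 7.63 ± 4.19 in CK-p25. Il27 was at 1.51 ± 0.531 FPKM in CK and 2.62 ± 2.02 in CK-p25.

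Il10ra, the IL-10 binding receptor chain, fell from 265 ± 34.4 FPKM in CK to 167 ± 25.1 in CK-p25 (-0.67 ± 0.13 SE, limma adjusted p = 0.00598) and 157 ± 8.36 in CK-p25 PU.1 cKO (-0.74 ± 0.13 SE). With quantile normalization these differences were -1.07 and -1.12. Il10rb, a chain shared with other cytokine receptors, was at 186 ± 23.5, 195 ± 8.96 and 199 ± 15.5 and did not pass. Of 6 IL-12 family subunits and receptors 2 were tested, and 2 rose in CK-p25 and 1 in CK-p25 PU.1 cKO. Il12rb2, the signalling chain of the IL-12 receptor, rose from 0.723 ± 0.270 FPKM to 7.06 ± 0.783 in CK-p25 (2.23 ± 0.25 SE, limma adjusted p = 0.000453) and 4.57 ± 2.18 in CK-p25 PU.1 cKO (1.64 ± 0.25 SE, or 2.46 with a pseudocount of 0.1). Only the p25 libraries brought Il12rb2 past the filter, so its calls carry no weight of their own. Ebi3, a chain of IL-27 and IL-35, passed in CK-p25 (0.45 ± 0.12 SE, limma adjusted p = 0.0196), which did not hold without CK replicate 1 or 2 or CK-p25 replicate 1.

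The NF-kB list, with all 13 genes tested, split by subunit. In CK-p25 5 rose and 3 fell, in CK-p25 PU.1 cKO 4 rose and 1 fell, and the medians were 0.33 and 0.31. Nfkb2 and Relb, subunits of the non-canonical pathway, rose by 1.2 ± 0.09 SE and by 1.18 ± 0.13 SE in CK-p25 (limma adjusted p = 7.24e-05 and 0.000316) and by 1.18 ± 0.09 SE and 1.2 ± 0.13 SE in the knockout libraries. Bcl3, a nuclear partner of the p50 and p52 subunits, rose by 1.74 ± 0.15 SE and by 1.81 ± 0.15 SE. Nfkb1, which encodes p50 and its precursor, fell from 37.7 ± 1.16 FPKM in CK to 18.6 ± 2.98 in CK-p25 (-0.99 ± 0.11 SE, limma adjusted p = 0.000435) and 18.4 ± 1.02 in the knockout libraries (-1.0 ± 0.11 SE). Of 7 genes that control the decay of cytokine mRNA, all tested, 1 rose and 1 fell in CK-p25 and 1 fell in CK-p25 PU.1 cKO. Zfp36l2, which binds AU-rich elements, fell by 0.84 ± 0.12 SE and by 0.69 ± 0.12 SE. Zc3h12a, the RNase known as Regnase-1 that degrades Il6 mRNA, passed in CK-p25 (0.56 ± 0.15 SE, limma adjusted p = 0.0252), a call lost with quantile normalization (limma adjusted p = 0.0592), with only the compared libraries (0.0659), and without CK replicate 1 or 2 or CK-p25 replicate 1. Its levels were low, 1.92 ± 0.289 FPKM in CK and 3.34 ± 0.771 in CK-p25. Zfp36, which encodes tristetraprolin, was at 289 ± 29.3, 333 ± 37.1 and 333 ± 22.2 FPKM and did not pass, nor did Elavl1.

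**Figure D5:**
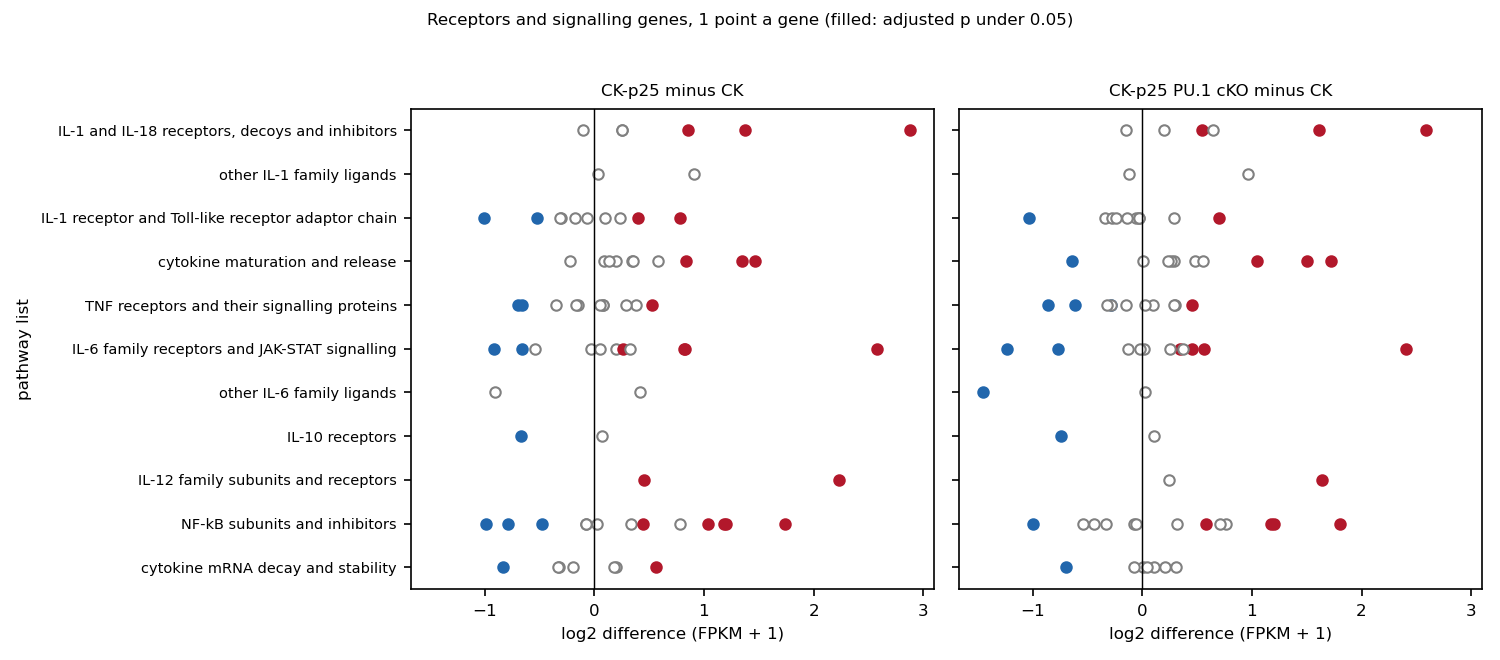
Log2 difference from CK of each tested gene (point) in the 11 pathway lists, for CK-p25 (left) and CK-p25 PU.1 cKO (right); filled points passed the threshold, red for higher and blue for lower. Both panels share the CK libraries, the highest point is Il18bp (2.88 and 2.59), and the filled blue points of the NF-kB row include Nfkb1 (-0.99 and -1.0).

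At 3 months, 1 of the 7 tested members passed between the labelled groups. Tnf was lower in the libraries labelled PU.1 cKO, beside 17.8% of all 10845 tested genes called lower, 12.4% called higher and 30.1% in either direction. The members' median was -1.01 (-0.40 without labelled control replicate 1, and -0.66 over all 9 members with no filter) and that of all genes -0.03. Groups did not overlap for Tnf and Il18, 2 of 7 members, against 48.8% of all tested genes. By level, labelled control had Il1a first at 93.9 ± 48.6 FPKM and Tnf next at 51.9 ± 10.9, which overlapped, while labelled PU.1 cKO had Il1a at 81.0 ± 22.4, Il18 at 38.8 ± 5.42 and Tnf in the sixth place. The sign of each 3-month difference would turn if the column names and not the titles were right.

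Tnf was at 61.5, 54.1 and 40.0 FPKM in labelled control and at 7.25, 6.27 and 5.55 in labelled PU.1 cKO. The lowest library of the first group was far above the highest of the second. The means were 51.9 ± 10.9 and 6.36 ± 0.851 (SD, n = 3), a ratio of 0.123 (-2.83 ± 0.21 SE, limma adjusted p = 0.000225), and the call remained when any 1 of the 6 libraries was left out, including labelled control replicate 1 with its neutrophil markers. The microglia marker sum was lower in all 3 labelled control libraries, and its part in the Tnf values was not tested.

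Il1b and Il1rn were led by a single library. Il1b measured 51.6, 9.79 and 11.6 FPKM in labelled control and 14.8, 3.74 and 8.17 in labelled PU.1 cKO, and Il1rn 13.7, 1.49 and 1.79 against 1.32, 0.258 and 1.51. Labelled control replicate 1 was the highest library for Il1a, Il1b, Il1rn, Tnf and Osm, 5 of the 7 tested members, against 10.9% of all tested genes, and it is the library with 16127 FPKM of neutrophil markers. Neither Il1b (-1.13 ± 0.67 SE, limma adjusted p = 0.229) nor Il1rn (-1.27 ± 0.68 SE, limma adjusted p = 0.193) passed.

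Il1a measured 142, 45.3 and 93.9 FPKM in labelled control and 105, 77.4 and 60.6 in labelled PU.1 cKO, with full overlap (-0.10 ± 0.41 SE, or 0.27 without labelled control replicate 1). Il6 was at 17.5, 8.41 and 18.0 against 8.59, 4.37 and 6.93 FPKM, an overlap through 1 library, and did not pass (-1.01 ± 0.34 SE, limma adjusted p = 0.0594). Without labelled control replicate 2, which holds the most border macrophage markers, the Il6 difference was -1.34 and passed (limma adjusted p = 0.0123). Osm was at 38.5, 24.0 and 17.6 against 19.2, 15.1 and 13.4 FPKM and did not pass (-0.66 ± 0.29 SE, limma adjusted p = 0.125).

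Il18 was the member with higher values in labelled PU.1 cKO, 39.5, 33.1 and 43.9 FPKM against 27.4, 24.5 and 29.2 in labelled control, without overlap (0.50 ± 0.17 SE, limma adjusted p = 0.0645). It passed after quantile normalization (0.70, limma adjusted p = 0.00854) or median centring (0.60, limma adjusted p = 0.0372), which move the median of all genes from -0.03 to 0.09 and 0.07. Il12b stayed between 0 and 0.238 FPKM and Il10 between 0 and 0.525 FPKM in these 6 libraries, and neither was tested. The ratio of Il1rn to Il1b was 0.265, 0.152 and 0.155 in labelled control and 0.0895, 0.0689 and 0.185 in labelled PU.1 cKO, which overlap.

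The 11 pathway lists were counted at 3 months as well, with directions given for the libraries labelled PU.1 cKO. Of 7 tested IL-1 and IL-18 receptors and inhibitors 0 were higher and 2 lower (Il18rap and Sigirr), and the 1 tested other IL-1 ligand did not pass. Of 10 adaptor genes 3 were higher (Myd88, Irak2 and Tab2) and 1 lower (Map3k7), and of 11 maturation genes 1 was higher (Nlrp3) and 2 lower (Capn1 and Capn2). Il18rap, Sigirr and Capn1 averaged below 1 FPKM in labelled PU.1 cKO. They reached the filter only through labelled control, where they are high, so their calls are no support. The TNF receptor list had 5 of 11 tested genes higher, among them both receptors, Tnfrsf1a and Tnfrsf1b, and 1 lower (Tradd). Of 11 tested IL-6 receptor and JAK-STAT genes 2 were higher (Il6ra and Lifr), as were the 1 tested IL-6 family ligand (Clcf1) and both IL-10 receptor chains. The 2 tested IL-12 family genes did not pass. The NF-kB list had 5 of 13 higher (Nfkb1, Rel, Rela, Relb and Nfkbie) and 1 lower (Nfkbiz), and the decay list 1 of 7 higher (Zfp36l2). In all, 20 of 76 tested genes were higher and 7 lower, beside 30.1% of all genes called. Il18rap, Sigirr and Capn1 are among the 7 and stay in the lower counts that follow. Without labelled control replicate 1, which has the neutrophil markers, 13 were higher and 4 lower, beside 18% of all genes called, and Tnfrsf1a, Tnfrsf1b, Tradd, Tab2, Map3k7, Nlrp3, Lifr, Rel, Relb and Nfkbiz no longer passed. Without labelled control replicate 2, 22 were higher and 9 lower, beside 42.9%, and Myd88, Nlrp3 and Nfkbiz no longer passed. The lower microglia marker sum of labelled control stands beside these counts, and its part in them was not tested.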

How the data were processed

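RNA was measured in 15 libraries, 9 at 4.5 months and 6 at 3 months. The authors deposited FPKM values in 2 tables, and the submitters' processing notes name TopHat, Bowtie, Cufflinks 2.0.0 and mm9. The kits named in the labels (SMART-Seq v4 and Nextera XT) keep no strand, so a gene and an antisense partner share reads. FPKM is no count, so no count model was fitted. The number of fragments per library is not given in the sources used here. The FPKM steps give the value of 1 fragment relative to the first library of each table, 1 to 1.45 at 4.5 months (highest in CK-p25 replicate 3) and 0.829 to 1.10 at 3 months. Summed FPKM per library was 475007 to 650063 at 4.5 months and 449784 to 622613 at 3 months; it gives no depth.

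Columns were matched to samples by the descriptions in the labels. Values were tested as log2(FPKM + 1) with limma 3.58.1 in R 4.3.3 (group model with a mean-variance trend, two-sided, Benjamini-Hochberg adjustment over all genes whose mean reached 1 FPKM, threshold 0.05). The 9 libraries of the 4.5-month table shared 1 estimate of the spread, and the 6 of the 3-month table another. On simulated data for CK-p25 minus CK (10894 genes), 77% of genes changed by 1 on the log2 scale and 95% of those changed by 2 were recovered. For the 3-month comparison (10845 genes) the shares were 26% and 77%. Only 100 genes were changed by each size. None had a mean log2(FPKM + 1) as low as that of Il12b or Il6 at 4.5 months, or of Il1rn at 3 months. In the real comparisons 31.3% and 30.1% of genes were called, which moves the adjusted threshold, so these shares do not measure recovery there. No 2 libraries of a group held the same values.

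All 9 members are named. From each pathway list, every gene past the threshold is counted, and up to 4 with the smallest p in the 4.5-month comparisons are named with values. The 3-month comparison is given by counts, and the genes named there have no values. The values of 1 such gene are not reported here. Genes most like a member are the 3 with the highest Pearson correlation over 9 libraries, among genes whose mean reached 5 FPKM and no library at 0. The members and lists were chosen with earlier results of these data known. Alternatives were another pseudocount, other filters, quantile normalization, median centring, no trend, a replicate block, only the compared libraries, and leaving out each library, which kept the genes selected over all libraries of the table. The 4 chromatin immunoprecipitation samples were not analysed here.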

Additional observations from a re-analysis of the deposited data

How the results depend on the processing

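Of the members' results, the calls of Il1rn and Il6 against CK and of Tnf at 3 months kept their side of the threshold in every alternative in which the gene was tested. Il1rn passed the filter only through the p25 libraries, so this adds no support for its calls. With a filter at a mean of 5 FPKM, Il6 was not tested at 4.5 months, so 0 members were called lower in either comparison with CK, while 2 were called lower at 3 months. Of all genes, 1154 (CK-p25) and 1115 (CK-p25 PU.1 cKO) of 7764 were then lower than in CK, and 1708 of 8089 were lower at 3 months. For CK-p25 PU.1 cKO against CK, the main 2 higher and 1 lower became 1 higher with no filter (Il1b adjusted p = 0.0740), 2 lower with quantile normalization, and 5 higher and 2 lower with only the compared libraries. Of all 10894 genes, 1937 were higher and 1447 lower in the main fit, and 2642 and 2398 with only the compared libraries. Quantile normalization gave 1702 and 2003 of these genes, and no filter gave 1912 and 1380 of 18107. Leaving out 1 library gave 1 to 5 higher, 1 to 2 lower and 2416 to 5077 genes in all. Between the p25 groups 2 genes were called with no filter, 1 with quantile normalization, 2 with only the compared libraries, and 0 to 27 on leaving out 1 library. At 3 months 1 member was called higher with quantile normalization and with median centring, and leaving out 1 library gave 1 to 2 members lower and 1451 to 4652 genes in all. Of all 10845 genes tested there, 2086 and 1713 were higher in these 2 settings, against 1344 in the main fit.

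Signs turned for differences near 0. In CK-p25 against CK, quantile normalization gave Il18 -0.0514, Il1a -0.0525 and Spi1 -0.39. Leaving out 1 library gave Il18 -0.13 to 0.19, Il1a -0.40 to 0.41 and Spi1 -0.10 to 0.16, all 3 lowest without CK-p25 replicate 3, and Spi1 was at -0.023 without CK replicate 2. Il18 in CK-p25 PU.1 cKO against CK ran from -0.12 to 0.018 (without knockout replicate 2). Between the p25 groups Il18 ran from -0.25 to 0.067 and Tnf was at 0.23 without CK-p25 replicate 3. At 3 months Il1a was at 0.18 with quantile normalization and ran from -0.55 to 0.27 (without labelled control replicate 1), with 0.089 without labelled PU.1 cKO replicate 3. The causes were not tested.

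Replicate numbers were not used as pairs in the main fits, and whether they mark a pair or a shared batch was not tested. Same-numbered libraries had correlations of deviations from -0.05 to 0.17, over 0.1 in 1 of 3 pairs in each 4.5-month comparison and in 2 of 3 at 3 months. With a replicate block, 2 members were called lower in CK-p25 PU.1 cKO against CK (Il1a added, adjusted p = 0.0276) and 4 at 3 months (Il1b, Il6 and Osm added). Of all genes, 1326 of 10894 and 2014 of 10845 were lower in these fits.

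Quantile normalization moved the share of higher calls from 56.3% to 45.6% in CK-p25 against CK, from 57.2% to 45.9% in CK-p25 PU.1 cKO against CK and from 41.1% to 53.0% at 3 months.

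The depth per library is not known, so no counting interval is given. Il10 at both ages and Il12b at 3 months were below the filter.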

Other observations

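For each member, the genes with the most similar log2(FPKM + 1) values over the 9 libraries of the 4.5-month table were found among 7544 genes. The points share libraries and groups, so the correlations describe the tables and carry no test. CK-p25 replicate 3 was the highest library for 7 of the 8 members, all but Il6. How far this library sets the correlations was not tested. For Il1rn they were H2-D1 (r = 1.00 to 2 decimals), a class I antigen presentation gene at 395 FPKM in CK, 4784 in CK-p25 and 3312 in CK-p25 PU.1 cKO, Arl5c (1.00) and H2-Q9 (1.00), another class I gene, at 0.803, 46.1 and 35.8 FPKM. For Il1b they were Paox (0.98), Tbc1d8 (0.98) and Lag3 (0.97), an inhibitory receptor of lymphocytes, at 25.5, 154 and 82.3 FPKM. For Il6 they were Slc16a6 (0.99), a transporter gene at 47.1, 23.1 and 14.1 FPKM, Sla (0.99) and Arid3b (0.99).

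For Il1a they were Orc5 (0.99), Zkscan4 (0.97) and Chuk (0.97), the gene of the kinase IKK alpha, at 13.4, 13.9 and 10.5 FPKM. For Tnf they were Dkc1 (0.98), Cyb5r4 (0.97) and Abcf1 (0.97), and for Osm Tbc1d10a (0.98), Ftsj3 (0.98) and Ncl (0.97). For Il12b they were Nudt9 (0.99), Alas1 (0.98) and Wls (0.98), and for Il18 Idh3g (0.95), Dnttip1 (0.94) and Ccz1 (0.94). H2-D1, H2-Q9 and other class I genes are close copies of each other, so their levels are uncertain where reads could be split among them.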
